A study of Mus musculus with 3 samples.

Results

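Krüppel-like factor genes were described in chromatin-associated RNA of macrophages early after an inflammatory stimulus. The 8 genes were Klf2, Klf3, Klf4, Klf6, Klf7, Klf9, Klf10 and Klf13, of 17 Klf genes and 55536 annotated genes in all. They were chosen by name, with earlier results of these data known. The libraries came from macrophages grown from bone marrow of C57BL/6J mice and exposed for 40 min to Lipid A at 100 ng/ml. Lipid A is the membrane anchor of lipopolysaccharide from bacteria and a ligand of Toll-like receptor 4. RNA bound to chromatin, which is enriched for transcripts still being made, was depleted of ribosomal RNA and sequenced in 1 group of 3 biological replicates. Age and sex of the mice are not recorded, no genetic change is named, and the 3 biosamples cite the same donor entry, so p-values measure the spread between these libraries. Untreated cells, other times and other cell fractions were not analysed here, so the values are levels at 40 min and not responses to Lipid A.

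Krüppel-like factors are transcription factors with C2H2 zinc fingers at their carboxy-terminal end that bind GC-rich and CACCC motifs. Their amino-terminal parts differ and recruit either coactivators or corepressors, so members can act in opposite directions at like sites. In myeloid cells Klf2 is known to restrain inflammatory gene expression, Klf4 to take part in monocyte differentiation and macrophage polarization, and Klf6 to regulate inflammatory genes.

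The libraries held 12699813, 18280033 and 18087091 expected counts in replicates 1, 2 and 3. The input was 1 µg of RNA for replicate 1, 250 ng for replicate 2 and 500 ng for replicate 3. Levels are in TPM, a measure of transcript abundance scaled for length and depth, from the alignment-based gene table unless another is named. Each level was also set against the reference gene, the median in that library of 8765 nuclear genes that encode proteins and average 1 TPM or more, which lay at 7.56, 6.64 and 6.56 TPM in replicates 1, 2 and 3. A gene was called higher or lower where log2(TPM + 0.1) lay more than 2-fold from that reference at an adjusted p under 0.05 (limma treat, two-sided, Benjamini-Hochberg over 18419 genes).

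The 8 genes spanned a ratio of 1017 in mean TPM between Klf6 at the top and Klf9 at the bottom. Klf6 and Klf7 were called higher than the reference gene, Klf4 and Klf9 lower, and Klf3, Klf13, Klf2 and Klf10 neither. The 4 genes called neither lay near the reference, and each changed sign under at least 1 other choice of reference genes, isoforms or length. These counts of 2 higher and 2 lower stand beside 15.1% and 52.5% of all genes tested. The median level of the 8 genes was 0.18 log2 units above the reference gene, against -1.75 for all genes tested. The genes tested include noncoding ones, while all 8 encode proteins and were chosen with earlier results known. The contrast therefore describes the chosen genes and not the family. All 9 other Klf genes (Klf1, Klf5, Klf8, Klf11, Klf12, Klf14, Klf15, Klf16 and Klf17) were called lower, 0 of them reached a mean of 1 TPM, and 4 had no count in any library. Of the 9 related Sp factor genes 7 were called lower and 2 neither. Sp3, the highest of them, averaged 14.0 ± 3.89 TPM (SD, n = 3), which lies between Klf3 and Klf13. Listed genes were tested even below a mean of 0.1 TPM. For the 4 Klf genes and 3 Sp genes without a count in any library, a call of lower was fixed in advance. The same holds for genes without a count on the lists given below. In bulk RNA such as this, fewer cells expressing a gene and less RNA per cell cannot be told apart.

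**Figure D1:**
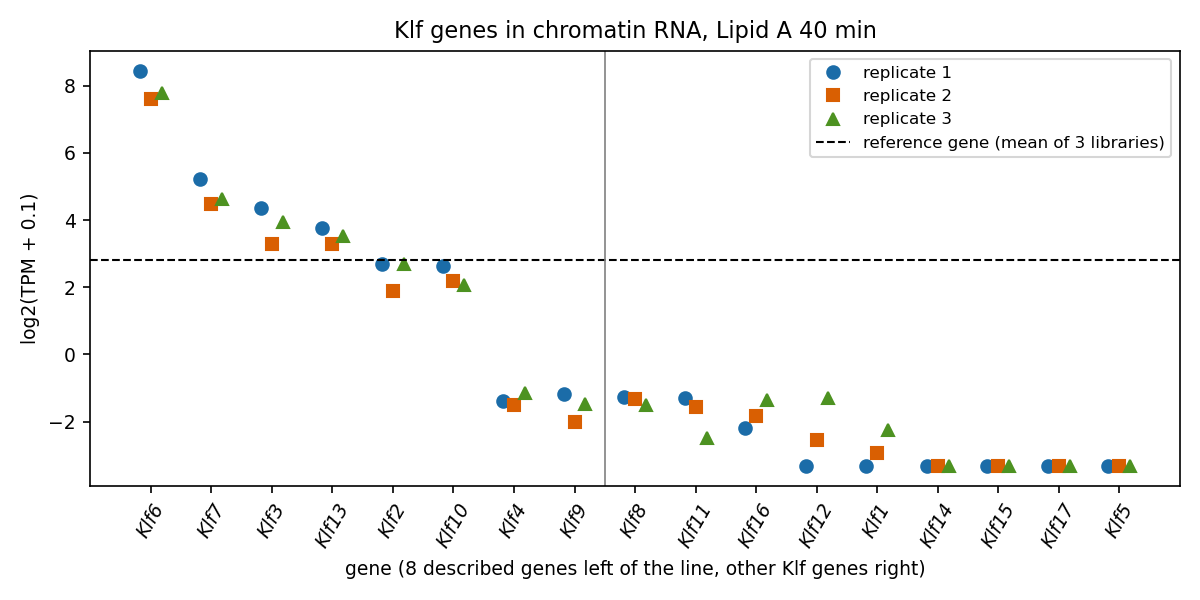
Level of the 17 Klf genes as log2(TPM + 0.1) in each of the 3 libraries, from the alignment-based table. The 8 genes described here are on the left and the others on the right, each in order of mean TPM. The dashed line is the reference gene. Klf6 stands above 7 log2 units in every library, and Klf4, Klf9 and all Klf genes on the right stand below 0.

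Within libraries the order was Klf6, Klf7, Klf3, Klf13, Klf2, Klf10, Klf4 and Klf9 by mean level. Klf6 exceeded Klf7 by 3.22, 3.12 and 3.16 log2 units in replicates 1, 2 and 3. The ranges over libraries of the neighbours Klf3 and Klf13, Klf2 and Klf10, and Klf4 and Klf9 overlapped. Klf3 exceeded Klf13 by 0.33 ± 0.30 log2 units (SD, n = 3), with the 2 genes nearly equal in replicate 2. Klf2 and Klf10 differed by 0.14 ± 0.48 and Klf4 and Klf9 by 0.20 ± 0.36 log2 units, in each case with opposite signs among the libraries. The other neighbours did not overlap.

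Klf6 encodes an activator also known as core promoter element-binding protein. The gene (ENSMUSG00000000078.7) occupies 5861482 to 5870394 of chromosome 13, plus strand, in mm10. Its level was 351, 193 and 219 TPM in replicates 1, 2 and 3, on 13497, 11926 and 15534 expected counts. Every library was far above the reference gene, by 5.13 ± 0.17 (SE) log2 units (adjusted p = 4.8e-05, limma treat, adjusted over all genes). Klf6 ranked 86th, 130th and 128th of 22028 protein-coding genes by TPM in these libraries. It supplied 80.6%, 79.4% and 77.9% of the summed TPM of the 8 genes. The 3 protein-coding genes outside the family with levels most like it were Spp1, Vmp1 and Hnrnpk, with root-mean-square differences of 0.050, 0.103 and 0.111 log2 units over the 3 libraries.

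Klf6 has 3 annotated isoforms, and the sequences that tell them apart are short. Klf6-201 is the full protein-coding form of 4225 bases. Klf6-203, of 1115 bases, is annotated as a target of nonsense-mediated decay and holds an extra exon of 68 bases, in which 18 codons are followed by a stop codon in frame. Klf6-202, of 799 bases, is annotated as a retained intron and has 90 bases of intron before the exon and 8 bases of intron at its end. Both stretches are shown because they hold sequence that the full coding form lacks. The first is the extra exon up to its stop codon (chr13:5863558-5863614, plus strand), with the stop codon in capitals. The second is the intron-exon border of Klf6-202 (chr13:5864738-5864797, plus strand), with the exon in capitals. Both are read from the transcripts of annotation release M21.
Klf6-203 extra exon: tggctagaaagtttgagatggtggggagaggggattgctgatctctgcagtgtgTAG
Klf6-202 intron-exon border: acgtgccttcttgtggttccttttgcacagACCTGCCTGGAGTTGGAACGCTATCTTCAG

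The full coding form of Klf6 carried 93.7 ± 2.55% (SD, n = 3) of the expected counts of the gene. The authors also deposited a transcript table computed from the reads without alignment, called here the alignment-free table. Klf6-203 received 1967, 2599 and 2366 estimated counts in replicates 1, 2 and 3 of the alignment-free table, against 24.1, 54.0 and 57.5 expected counts in the alignment-based table. Klf6-202 received 3206, 2685 and 2398 estimated counts in the alignment-free table and 1007, 882 and 459 expected counts in the alignment-based table. The same reads therefore gave Klf6-201 a share of 35.1 ± 5.70% of the gene's TPM in the alignment-free table and 69.2 ± 10.4% in the alignment-based table (SD, n = 3). In both tables Klf6-201 took its largest share in replicate 3. Summed over isoforms, the gene stood at 445 ± 190 TPM in the alignment-free and 254 ± 84.4 TPM in the alignment-based table.

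Klf7, an activator gene known for its part in neuronal development, was the second highest of the 8. It occupies 64029447 to 64122282 of chromosome 1, minus strand (ENSMUSG00000025959.13). Its level was 37.5, 22.2 and 24.4 TPM in replicates 1, 2 and 3, on 1943, 1603 and 1868 expected counts. All libraries were above the reference gene, by 1.97 ± 0.15 (SE) log2 units (adjusted p = 0.00127, limma treat, adjusted over all genes). With a band of 4-fold the adjusted p was 1, and with reference genes from 5 TPM it was also 1 (limma treat). The call was thus lost with a wider band or a higher reference. Without a band (adjusted p = 0.000123, limma) and with reference genes from 0.1 TPM (3.03 log2 units) the call had to hold. The first relaxes the test, and the second raised all levels by 1.06 log2 units. The call of Klf7 also held by the alignment-free values (2.63 log2 units). Its isoform of 7662 bases carried 80.7 ± 5.81% of its expected counts (SD, n = 3). The antisense gene Gm13748 and the noncoding gene Gm26649 overlap Klf7 on the opposite strand and averaged 2.88 and 0.28 TPM. No source used here says whether counting used strand, so reads of the overlaps are uncertain.

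Klf2 and Klf4, the pair induced through the kinase ERK5 and MEF2 factors in endothelium, differed widely in level. Klf2 (chromosome 8, 72319033 to 72321656, plus strand, ENSMUSG00000055148.7) had 6.41, 3.63 and 6.43 TPM in replicates 1, 2 and 3, on 145, 133 and 220 expected counts. Replicate 2 was the low library, and the mean lay 0.37 ± 0.20 (SE) log2 units below the reference gene without passing the test (adjusted p = 1, limma treat). Klf2 has a single annotated isoform, so its own reads are not divided among isoforms, although the reference gene it is set against still depends on that division. Klf4 (chromosome 4, 55527143 to 55532466, minus strand, ENSMUSG00000003032.8) had 0.28, 0.25 and 0.35 TPM, on only 11, 16 and 21 expected counts. It was called lower than the reference gene by 4.16 ± 0.28 (SE) log2 units (adjusted p = 0.000294, limma treat, adjusted over all genes). The Klf2 values stood above every Klf4 value in all 3 libraries.

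Klf3 encodes a repressor that recruits CtBP proteins. The gene (chromosome 5, 64803388 to 64832901, plus strand, ENSMUSG00000029178.14) had 20.5, 9.75 and 15.2 TPM in replicates 1, 2 and 3, on 952, 758 and 1079 expected counts. The mean exceeded the reference gene by 1.06 ± 0.20 (SE) log2 units and did not pass the test of more than 2-fold (adjusted p = 0.513, limma treat), with replicate 1 the highest and replicate 2 the lowest. Counting protein-coding isoforms alone, Klf3 lay at -0.49 log2 units from a reference gene computed in the same way, so its direction turned, as it did with reference genes from 5 TPM (adjusted p = 1 in both, limma treat). Klf3 was called higher by the alignment-free values (1.88 log2 units, adjusted p = 0.00217), with reference genes from 0.1 TPM (2.12, adjusted p = 0.00264) and without the 2-fold band (adjusted p = 0.00343, all limma). The isoform setting was chosen after the values had been seen.

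In the alignment-based table most of the Klf3 level was assigned to isoforms annotated as retained introns. Retained-intron isoforms took 15.0, 7.45 and 11.7 TPM in replicates 1, 2 and 3 of the alignment-based table, beside 4.63, 2.30 and 3.49 TPM for its protein-coding isoforms. Their share was 75.6 ± 1.94% of the gene's TPM and 68.8 ± 2.18% of its expected counts (SD, n = 3). Klf3-204 and Klf3-203 made up nearly all of it. Of the 2749 bases of Klf3-204, 2489 lie outside the exons of protein-coding Klf3 isoforms, as do 3285 of the 4016 bases of Klf3-203. In the alignment-free table the share was 46.3 ± 4.25%, against 75.6 ± 1.94% in the alignment-based table. C230096K16Rik, a gene of unsettled type on the same strand, lies inside the Klf3 locus and had 15.7, 7.56 and 12.2 TPM in replicates 1, 2 and 3, again lowest in replicate 2.

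Klf9, Klf10 and Klf13 belong to the members that bind the corepressor Sin3 through a short amino-terminal helix. Klf9, a gene induced by glucocorticoid and thyroid hormone in several tissues, occupies 23141226 to 23168134 of chromosome 19, plus strand (ENSMUSG00000033863.2). It had 0.34, 0.15 and 0.26 TPM in replicates 1, 2 and 3, on 20, 14 and 19 expected counts. It was called lower than the reference gene by 4.36 ± 0.31 (SE) log2 units (adjusted p = 0.000296, limma treat, adjusted over all genes).

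Klf13, known in human T cells as a regulator of the chemokine gene CCL5, occupies 63886351 to 63938915 of chromosome 7, minus strand (ENSMUSG00000052040.10). It had 13.6, 9.74 and 11.5 TPM in replicates 1, 2 and 3, on 311, 407 and 368 expected counts. Its mean exceeded the reference gene by 0.73 ± 0.13 (SE) log2 units without passing the test (adjusted p = 1, limma treat), and it lay at -1.08 counting protein-coding isoforms alone. The protein-coding gene E030018B13Rik and the noncoding gene Gm27252 overlap the Klf13 locus on the opposite strand and averaged 3.14 and 0.793 TPM. As for Klf7, reads of the overlaps are uncertain because the strand setting is not known. The isoform Klf13-203, a single exon annotated as a retained intron, lies at 63935399 to 63936332 on chromosome 7. Of its 934 bases, 862 lie outside the exons of protein-coding Klf13 isoforms. It had 10.8, 7.71 and 9.61 TPM in the alignment-based table, beside 2.72, 2.03 and 1.88 TPM for the protein-coding isoforms. Its share was 57.5 ± 5.59% of the gene's TPM in the alignment-free table and 80.9 ± 2.40% in the alignment-based table (SD, n = 3), although it held only 34.4 ± 4.57% of the expected counts, since TPM divides counts by length.

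Retained-intron shares were common in these libraries. These shares do not tell a retained intron from a transcript still being made and not yet spliced. Among genes with both a retained-intron and a protein-coding isoform, the median share was 41.9% over 7011 genes in the alignment-free table and 40.2% over 5825 genes in the alignment-based table. Of genes in the alignment-free table, 55.8% had a smaller share than Klf3, 70.0% a smaller share than Klf13 and 50.1% a smaller share than Klf6. By the alignment-based values these percentages were 92.6% for Klf3, 95.7% for Klf13 and 34.2% for Klf6. The high standing of Klf3 and Klf13 among genes therefore depended on the table. Klf2, Klf4, Klf7, Klf9 and Klf10 have no isoform annotated as a retained intron.

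**Figure D2:**
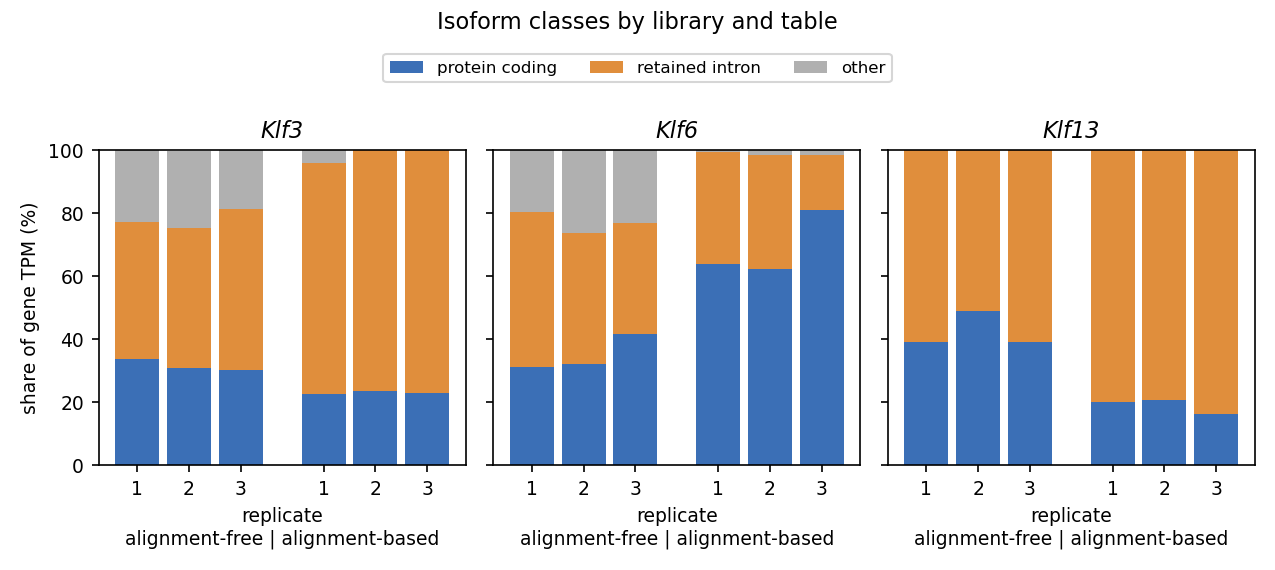
Share of each gene's TPM in protein-coding, retained-intron and other isoforms for Klf3, Klf6 and Klf13; each bar is 1 library, with the alignment-free table on the left and the alignment-based table on the right of each panel. Retained-intron isoforms hold 46.3% of Klf3 and 57.5% of Klf13 on average in the alignment-free table, against 75.6% and 80.9% in the alignment-based table, and Klf6 has its largest protein-coding share in replicate 3 of each table.

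Klf10, the early gene induced by TGF-β, gave the widest gap of the 8 genes between both quantifications of the same reads. The gene occupies 38291463 to 38300706 of chromosome 15, minus strand (ENSMUSG00000037465.10). Klf10 had 206, 185 and 261 TPM in replicates 1, 2 and 3 of the alignment-free table, against 6.09, 4.49 and 4.07 TPM in the alignment-based table. The alignment-based level rested on 225, 223 and 169 expected counts and lay 0.51 ± 0.15 (SE) log2 units below the reference gene, without passing the test of more than 2-fold (adjusted p = 1, limma treat). Without the band it was called lower (adjusted p = 0.0209, limma). In the alignment-free table Klf10 was the second highest of the 8 genes.

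Nearly all of the alignment-free level came from the isoform Klf10-204, which has 3 exons and 326 bases. It had 195, 178 and 255 TPM on 468, 983 and 1137 estimated counts in the alignment-free table, against 0, 0.90 and 1.00 TPM on 0, 2.00 and 2.27 expected counts in the alignment-based table. Klf10-204 shares its first exon of 148 bases with the full form Klf10-201. Its second exon, of 151 bases and found in no other Klf10 isoform, holds a run of 33 A at positions 27 to 59 of the exon. That exon (chr15:38300267-38300417, minus strand, from the transcripts of annotation release M21) is shown because it sets this isoform apart, with the run in capitals.
Klf10-204 second exon: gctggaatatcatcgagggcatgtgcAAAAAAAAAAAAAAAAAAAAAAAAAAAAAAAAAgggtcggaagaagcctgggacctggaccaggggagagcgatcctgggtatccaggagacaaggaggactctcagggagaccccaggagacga

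**Figure D3:**
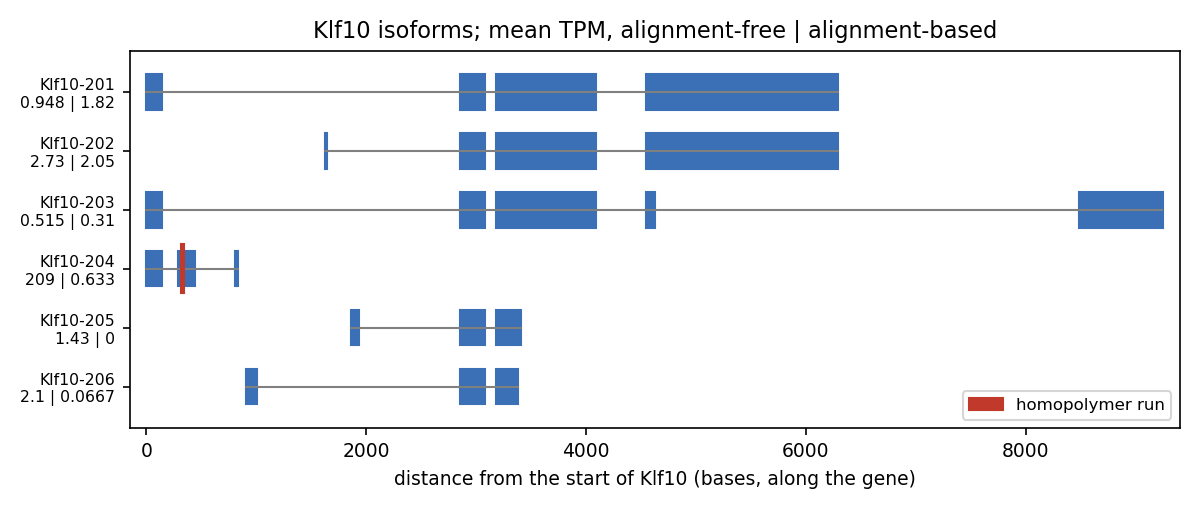
Exons of the 6 annotated Klf10 isoforms against the distance in bases from the start of the gene, with the mean TPM over 3 libraries beside each name, alignment-free before alignment-based. The homopolymer run, in red, lies in the second exon of Klf10-204, whose mean is 209 TPM in the alignment-free and 0.633 TPM in the alignment-based table.

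A run of at least 31 A or T occurred in 210 of 141767 annotated transcripts, and Klf10-204 was the single case at this length among 55 Klf transcripts. Klf13-201 has a run of 30 T, just under that minimum. In replicates 1, 2 and 3 it had 3.16, 3.07 and 3.20 TPM alignment-free, against 2.35, 2.03 and 1.71 TPM alignment-based. Klf13 as a gene had a difference between the tables of -0.46 log2 units once centred on each library's median. All transcripts with a run of at least 31 A or T were then left out. The Klf10 level in the alignment-free table became 10.9, 6.75 and 5.51 TPM in replicates 1, 2 and 3, against 6.09, 4.49 and 4.07 TPM in the alignment-based table. Among transcripts averaging 1 TPM or more over both tables, 45.3% of 117 with a run were more than 8-fold higher in the alignment-free table, against 22.9% of 38335 without. Among transcripts of 200 to 500 bases, a range that holds Klf10-204, these were 5 of 6 with a run and 39.2% of 4869 without, so short transcripts without a run were often higher too. Among genes, 47.6% of the 124 with such a transcript were called higher in the alignment-free table, against 31.5% of 17626 others. Klf10-204, or its gene, is itself counted in each of these groups with a run. Transcripts and genes near 0 in the alignment-based table entered the groups only through their alignment-free values. The 8-fold cut, unlike the test of genes, was not centred on each library's median. The length of the run, the fold, the size range and these groupings were chosen after the values had been seen. The part of the run in the Klf10 difference was not tested. The alignment-based counts of Klf10 fell mainly on Klf10-201 and Klf10-202, which differ in their first exon. Klf10-201 had 56.2, 169 and 82.9 expected counts and Klf10-202 had 156, 37.3 and 78.6, so which of them led changed between libraries.

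Across the tables the 6 genes that average 1 TPM or more were tested as the log2 difference of alignment-free minus alignment-based TPM, centred on each library's median (limma treat with a 1.5-fold band). Klf10 was called higher in the alignment-free table, by 4.57 ± 0.32 (SE) log2 units (adjusted p = 0.000964, limma treat, adjusted over all genes, in 3 of 3 libraries). This 1 call stands beside 31.7% of 17750 genes called higher and 15.7% called lower, and 13.8% of genes had a larger difference than Klf10. Without transcripts holding a run its difference was -0.26 log2 units and it was not called (adjusted p = 1, limma treat). The Klf10 transcript left out there, Klf10-204, held 94.7%, 96.3% and 97.9% of the gene's alignment-free TPM in replicates 1, 2 and 3. Its removal had to lower the difference whether or not the run mattered, and the part of the run was not tested. With all transcripts kept, Klf6, Klf7, Klf3, Klf13 and Klf2 had differences of -0.11, -0.17, -0.01, -0.46 and -0.60 log2 units, of which 0 passed the test. Klf4 and Klf9 fell under the minimum level for this test.

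**Figure D4:**
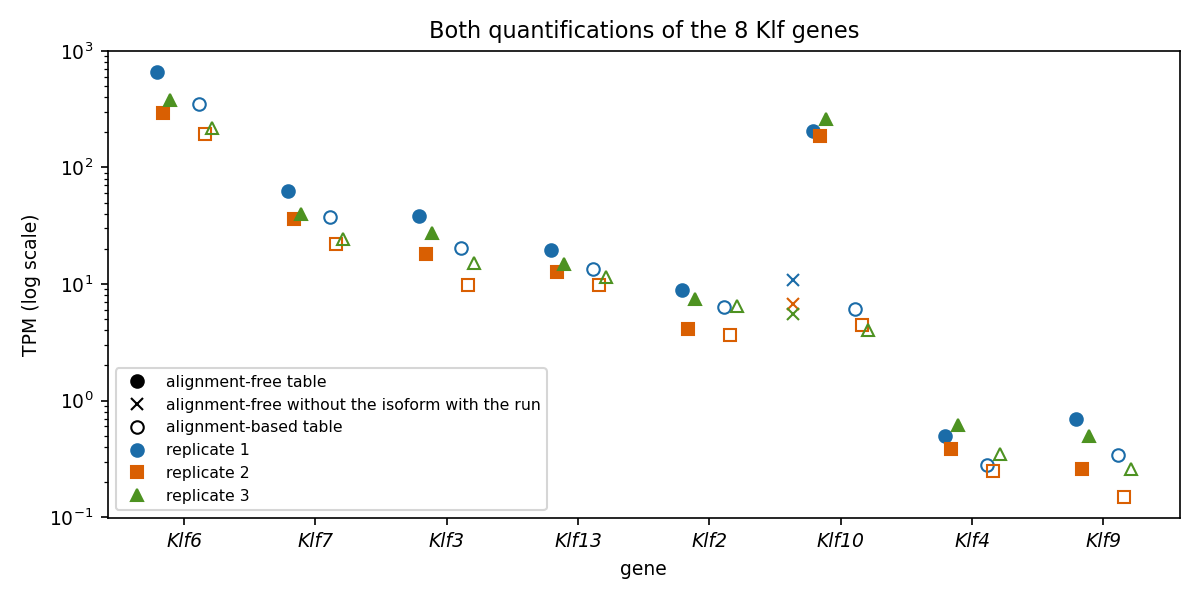
TPM on a log axis of the 8 Klf genes in each library, with the alignment-free table (filled) left of the alignment-based table (open) and, for Klf10, the alignment-free value without Klf10-204 as crosses at the far left. Klf10 lies between 185 and 261 TPM in the alignment-free table and between 4.07 and 6.09 TPM in the alignment-based table, while the other genes keep their order by mean TPM in both.

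Replicate spread was taken from rounded expected counts as log2 CPM, library-scaled counts after TMM in edgeR. Klf13 had the smallest SD, 0.06 log2 units, and lay within 0.07 of its mean in every library. The SD of Klf4, Klf6, Klf7, Klf10, Klf3, Klf2 and Klf9 was 0.27, 0.30, 0.33, 0.37, 0.38, 0.39 and 0.40. These SDs depended on single libraries: without replicate 2 those of Klf3, Klf6 and Klf2 were 0.12, 0.10 and 0.18 and that of Klf10 0.53, without replicate 3 that of Klf4 was 0.10, and without replicate 1 that of Klf7 was 0.19. Klf13 had the smallest SD with any 1 library left out. The median over 12931 genes was 0.27, with quartiles of 0.17 and 0.40. Among genes within 0.5 log2 CPM of the member, the median SD was 0.24 for Klf13, 0.33 for Klf4, 0.27 for Klf6 and 0.21 for Klf7. It was 0.26 for Klf10, 0.22 for Klf3, 0.26 for Klf2 and 0.34 for Klf9. Klf13 and Klf4 lay below these medians and the other members above. Replicate 2 was the lowest library for 5 of the 8 genes (Klf2, Klf3, Klf6, Klf7 and Klf9) and the highest for 0, and replicate 1 was the highest for 6. Over all genes replicate 2 was lowest for 38.3% and highest for 37.6%, and replicate 1 was highest for 36.3%. Replicate 2 was made from the smallest amount of RNA, 250 ng, and the part of that amount in these deviations was not tested.

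**Figure D5:**
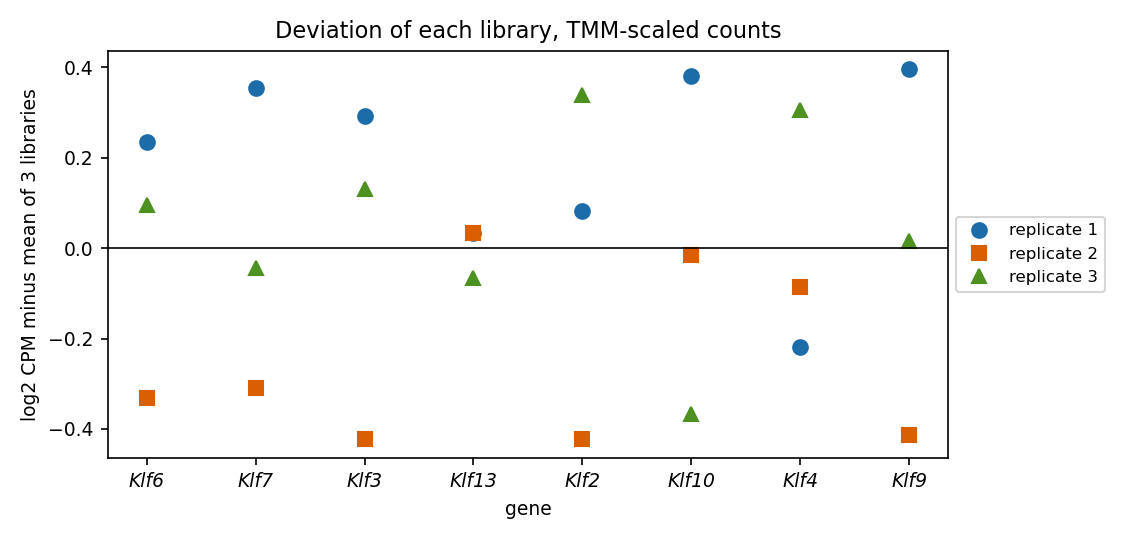
Deviation of each library from the mean of the 3 in log2 CPM, for the 8 Klf genes in order of mean TPM. Replicate 2 is lowest for Klf6, Klf7, Klf3, Klf2 and Klf9, at -0.31 to -0.42, and the 3 points of Klf13 lie within 0.07 of 0.

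Genes of proteins that work with Klf factors were also counted. Over all genes tested 15.1% were called higher and 52.5% lower, with a median of -1.75 log2 units. Those genes include noncoding ones, while the listed genes encode proteins and were chosen with earlier results known. Among genes with a mean of at least 1 TPM, 23.1% were called higher and 23.1% lower. The counts below therefore describe the listed genes only. Of 13 corepressors and coactivators 5 were called higher, 2 lower and 6 neither, with a median of 0.61 log2 units above the reference gene. The deacetylase gene Hdac1 averaged 58.6 ± 18.7 TPM and Sin3b, a scaffold of the Sin3 complex, 31.7 ± 3.42 TPM, while Sap30, another Sin3 subunit, was lowest at 1.11 ± 0.309 TPM (SD, n = 3). Ctbp1 and Ctbp2, the partners of Klf3, averaged 8.20 ± 0.261 and 15.6 ± 1.01 TPM, and neither was called. Of 8 genes of the ERK5 and MEF2 route 6 were called higher, 1 lower and 1 neither, with a median of 1.935 log2 units above the reference gene. Mef2a and Mef2c led it at 83.6 ± 33.3 and 72.1 ± 15.3 TPM, Mef2b was lowest at 0.09 ± 0.0458 TPM, and Mapk7, which encodes ERK5, averaged 3.29 ± 1.07 TPM and was not called. Of 8 ubiquitin ligases and adaptors that act on Klf proteins 3 were higher, 2 lower and 3 neither (median level 0.315), with Wwp1 at 115 ± 14.9, Itch at 21.2 ± 3.04 and Fbxo32 at 0.143 ± 0.104 TPM.

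Of 10 genes known to respond to Klf2 or Klf4, 2 were called higher, 6 lower and 2 neither, near the 15.1% and 52.5% of all genes tested, with a median of -2.96 log2 units from the reference gene, against -1.75 for all genes tested. Cdkn1a, a cell cycle inhibitor, averaged 189 ± 38.1 TPM and the mannose receptor gene Mrc1 151 ± 6.07 TPM, while Retnla had no count. Of 6 glucocorticoid-induced genes, which share hormone control with Klf9, 2 were higher, 2 lower and 2 neither (median level 0.23). The phosphatase gene Dusp1 averaged 335 ± 67.1 TPM and the kinase gene Sgk1 49.6 ± 6.43 TPM, while Fkbp5 was lowest at 0.81 ± 0.181 TPM. Of the 4 Egr genes, another family of C2H2 factors, 2 were higher, 1 lower and 1 neither (median level 1.065), with Egr2 at 46.5 ± 11.5, Egr1 at 45.7 ± 15.8 and Egr4 at 0.0133 ± 0.0115 TPM.

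Macrophage markers were present as labelled, with 7 of 8 called higher, led by Csf1r at 203 ± 27.3 TPM. Of 6 endothelial markers, a cell type known for Klf2 and Klf4, 1 was higher and 5 lower. Their summed level was 46.6 to 53.1 TPM over the libraries, nearly all of it from Vwf at 49.3 ± 3.51 TPM, and Cdh5, Tie1 and Tek averaged 0.157, 0.01 and 0.0267 TPM. Neutrophil, B cell and fibroblast markers were all called lower, with summed levels of at most 1.27 TPM in any library. For markers without a count that call was fixed in advance. T cell and erythroid markers held 1 gene each that was not called, Cd4 at 2.96 and Alas2 at 3.38 TPM, while the other markers of these lists averaged 0.15 TPM or less.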

How the data were processed

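Per the labels, total RNA of the chromatin fraction was sequenced in 3 libraries of 1 group. The authors deposited, per the file headers, gene and transcript tables with expected counts and TPM for annotation release M21 on mm10, and an alignment-free transcript table with estimated counts and TPM. Which programs were used is not given in the sources used here. Expected counts as deposited divide reads among isoforms and were rounded for edgeR. Deposited TPM divides counts by effective length, so short isoforms gain from few reads. Where a gene had no count, its share of the library could be as high as 2.36e-05% in replicate 1, 1.64e-05% in replicate 2 and 1.66e-05% in replicate 3 (3 counts of the total, counting error only).

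Levels, as log2(TPM + 0.1) minus the reference gene, were tested with treat in limma 3.58.1 (trended prior) over genes with a mean of at least 0.1 TPM or on a list. The pseudocount understates differences of low genes. The comparison of tables used genes with a mean of at least 1 TPM over both tables. Spread used edgeR 4.0.16 (TMM, minimum count 10, prior count 2) or DESeq2 1.42.0 size factors. The fits were tested on simulated data. Named genes were the 8 genes, the highest Sp factor, any other Klf gene called higher or with a mean of at least 1 TPM, the 2 highest and the lowest gene of each list, and the 3 genes most like the highest and the lowest member (those for the lowest are not reported here). Other genes named were chosen after their values were seen. The members and lists were chosen with earlier results of these data known. Alternatives covered the pseudocount, filters, reference, band, table and each library left out.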

Additional observations from a re-analysis of the deposited data

How the results depend on the processing

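Calls of Klf6, Klf4 and Klf9 held in every alternative that tested them. With reference genes from 5 TPM all levels shifted by -1.19 log2 units, 1 member was called higher and 4 lower (of all genes 7.31% and 68.9%; Klf7 lost, Klf2 and Klf10 added), and Klf3 and Klf13 turned to -0.13 and -0.46. With reference genes from 0.1 TPM the shift was 1.06, 4 were higher (24.5% of all genes; Klf3 and Klf13 added), and Klf2 and Klf10 turned to 0.69 and 0.55. Without a band 4 were higher (23.3% of all genes; Klf3 and Klf13 added) and 3 lower (65.3%; Klf10 added), with a 4-fold band 1 (7.96%), and 4 (16.4%) by the alignment-free values, with Klf3 at 1.88 and Klf10 at 4.89. With genes from a mean of 1 TPM 0 were called lower, because Klf4 and Klf9 were not tested. Settings chosen after seeing the data turned Klf10 to 0.047 (alignment-free without transcripts holding a run), Klf2 and Klf10 to 1.10 and 0.27 (counts per summed exon length), and Klf2, Klf3, Klf10 and Klf13 to 0.16, -0.49, 0.024 and -1.08 (protein-coding isoforms alone). Leaving out each library, Klf6 ranged from 4.91 to 5.28 and Klf7 from 1.77 to 2.09, both still called. Between tables a pseudocount of 1 turned Klf3 and Klf6 to 0.10 and 0.044, leaving out a library moved Klf3 between -0.15 and 0.088 and Klf10 between 4.32 and 4.88, and without a band 2 members (Klf2 and Klf13) were lower (38.7% of all genes). Without transcripts holding a run 0 were higher and Klf10 turned to -0.26. The causes were not tested. No paired comparison of conditions was possible because the series has 1 group. The comparison of tables was paired within each library. Klf4 and Klf9 rest on 11 to 21 expected counts a library.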

Other observations

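Klf11 and Klf12, outside the 8 genes described, also differed between the tables, although no transcript of either holds a run of at least 31 A or T. Klf12, a repressor gene, averaged 9.70 ± 3.38 TPM in the alignment-free table and 0.127 ± 0.163 TPM in the alignment-based table (SD, n = 3). Its isoform Klf12-203, of 832 bases, received 87.1, 168 and 253 estimated counts in the alignment-free table, against 0, 1 and 4 expected counts in the alignment-based table. Klf11, a Sin3-binding relative of Klf10, averaged 4.21 ± 1.29 TPM in the alignment-free table and 0.21 ± 0.118 TPM in the alignment-based table. The isoform Klf11-201 held 162, 644 and 573 estimated counts, against 8, 21 and 5.92 expected counts. Both were called higher in the alignment-free table, by 4.74 and 2.94 log2 units (adjusted p = 0.000965 and 0.0142, limma treat, adjusted over all genes), beside 31.7% of all genes tested. Among the Klf genes tested between the tables, Klf10, Klf11 and Klf12 were thus the 3 called. A gene was tested where its mean over both tables was at least 1 TPM. Klf11 and Klf12 met that minimum only through their alignment-free values, so the minimum itself favoured a call of higher for them.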
